A study of Homo sapiens with 21 samples.

Results

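The HOX, FOX and SOX genes encode DNA-binding transcription factors. Members were the rows of the gene count table whose gene symbol was HOX with a cluster letter A to D and a number, FOX with a letter A to S and a number, or SOX with a number. This gave 102 genes among the 28395 rows, of which 39 were HOX, 44 were FOX and 19 were SOX genes. Of these, 70 had enough reads to be tested beside all other genes (29 HOX, 31 FOX and 10 SOX), among 16036 genes tested in all.

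HOX proteins bind DNA through a homeodomain and set position along the body axis. Their genes lie in the HOXA, HOXB, HOXC and HOXD clusters, where order along the chromosome follows the order of use along the axis, and they bind many of their sites together with PBX and MEIS proteins. FOX proteins share the forkhead domain and include FOXM1, which drives genes of mitosis, FOXO1 and FOXO3, which the AKT kinase keeps out of the nucleus, and FOXC1 and FOXQ1, which are studied in basal-like and mesenchymal breast cancer. SOX proteins bind through an HMG box and include SOX9 of cartilage and stem cells and SOX4, which is linked to epithelial to mesenchymal transition.

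The cells were Hs578T, an established line of triple-negative breast cancer with a mesenchymal phenotype, labelled wild type, and RNA was taken 8 h after treatment. The 7 groups of 3 libraries were DMSO, THZ531 at 0.1 µM, lapatinib at 3.16 µM, nilotinib at 1 µM, lapatinib at 3.16 µM with THZ531 at 0.1 µM, nilotinib at 1 µM with THZ531 at 0.1 µM, and THZ531 at 1 µM. THZ531 is an inhibitor of the transcription kinases CDK12 and CDK13, lapatinib inhibits EGFR and HER2, and nilotinib inhibits BCR-ABL. All values come from 1 cell line and 1 time point, and the study derived the libraries of a group from independent experiments, whose spread the p-values measure.

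The libraries held 97612207 to 112229052 counts, and the correlation of log2 levels between replicates was 0.990 to 0.994. The 9 mesenchymal markers checked (AXL, CAV1, CD44, CDH2, FN1, SNAI2, SPARC, VIM and ZEB1) were at 103.5 CPM (counts scaled to library size) or more in every library. Of 8 genes listed as absent or low, CDH1, EPCAM, ESR1 and PGR did not exceed 0.502 CPM. KRT18, ERBB2, GATA3 and FOXA1 of that list were expressed, with means in DMSO of 83.7, 37.5, 17.5 and 4.15 CPM. KRT18 reached 160.9 CPM, within the range of the mesenchymal marker SNAI2. Replicate 2 of THZ531 1 µM was the lowest of its group in 52 of the 70 tested members (74.3%), against 39.8% of all genes tested, so the counts for this group and the comparisons with it are also given without this library, with the calls that it decides. Reads were counted without regard to strand, and 41 of the 70 members overlap another annotated gene, so reads of overlapping and antisense genes cannot be told apart there. In bulk RNA, fewer cells with a transcript and less of it per cell cannot be told apart.

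In DMSO the HOX genes with the highest level per length were HOXC10, HOXC8, HOXC4 and HOXA4. HOXC10 stood at 25.8 ± 1.68 CPM per kb of exon (mean ± SD, n = 3), HOXC8 at 8.82 ± 0.745, HOXC4 at 8.29 ± 0.852 and HOXA4 at 6.33 ± 0.335. HOXC10 lay above the rest, while HOXC8 and HOXC4 differed by less than their spread. The tested HOX genes were 11 of HOXA, 8 of HOXB, 8 of HOXC and 2 of HOXD. The latter were HOXD13, at 2.36 ± 0.294 CPM per kb, and the much lower HOXD1, at 0.0803 ± 0.0325, and the remaining 7 listed HOXD genes had at most 18 counts in any library. HOXB1, HOXB13 and HOXC12 were also untested, with at most 2 counts.

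FOXM1 had the highest level per length among the FOX genes, at 46.8 ± 2.39 CPM per kb in DMSO. FOXD1 followed at 22.4 ± 1.51, FOXF2, a mesenchymal forkhead gene, at 12.5 ± 0.669 and FOXJ3 at 11.6 ± 0.434. FOXM1 and FOXD1 stood above the others by more than their spread. FOXA1, the pioneer factor of luminal breast cells, stood at 0.939 ± 0.0477 CPM per kb, far under FOXC1 at 4.57 ± 0.126. Among the SOX genes SOX4 led at 13.3 ± 0.944 CPM per kb, followed by SOX12 at 9.35 ± 1.27, SOX9 at 8.82 ± 0.713 and SOX13 at 2.92 ± 0.252. SOX12 and SOX9 did not differ beyond their spread. SOX2 and SOX10, which mark stem cells and neural crest, had at most 2 counts in any library. Altogether 32 members were not tested (10 HOX, 13 FOX and 9 SOX), of which 14 had no count in any library.

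**Figure D1:**
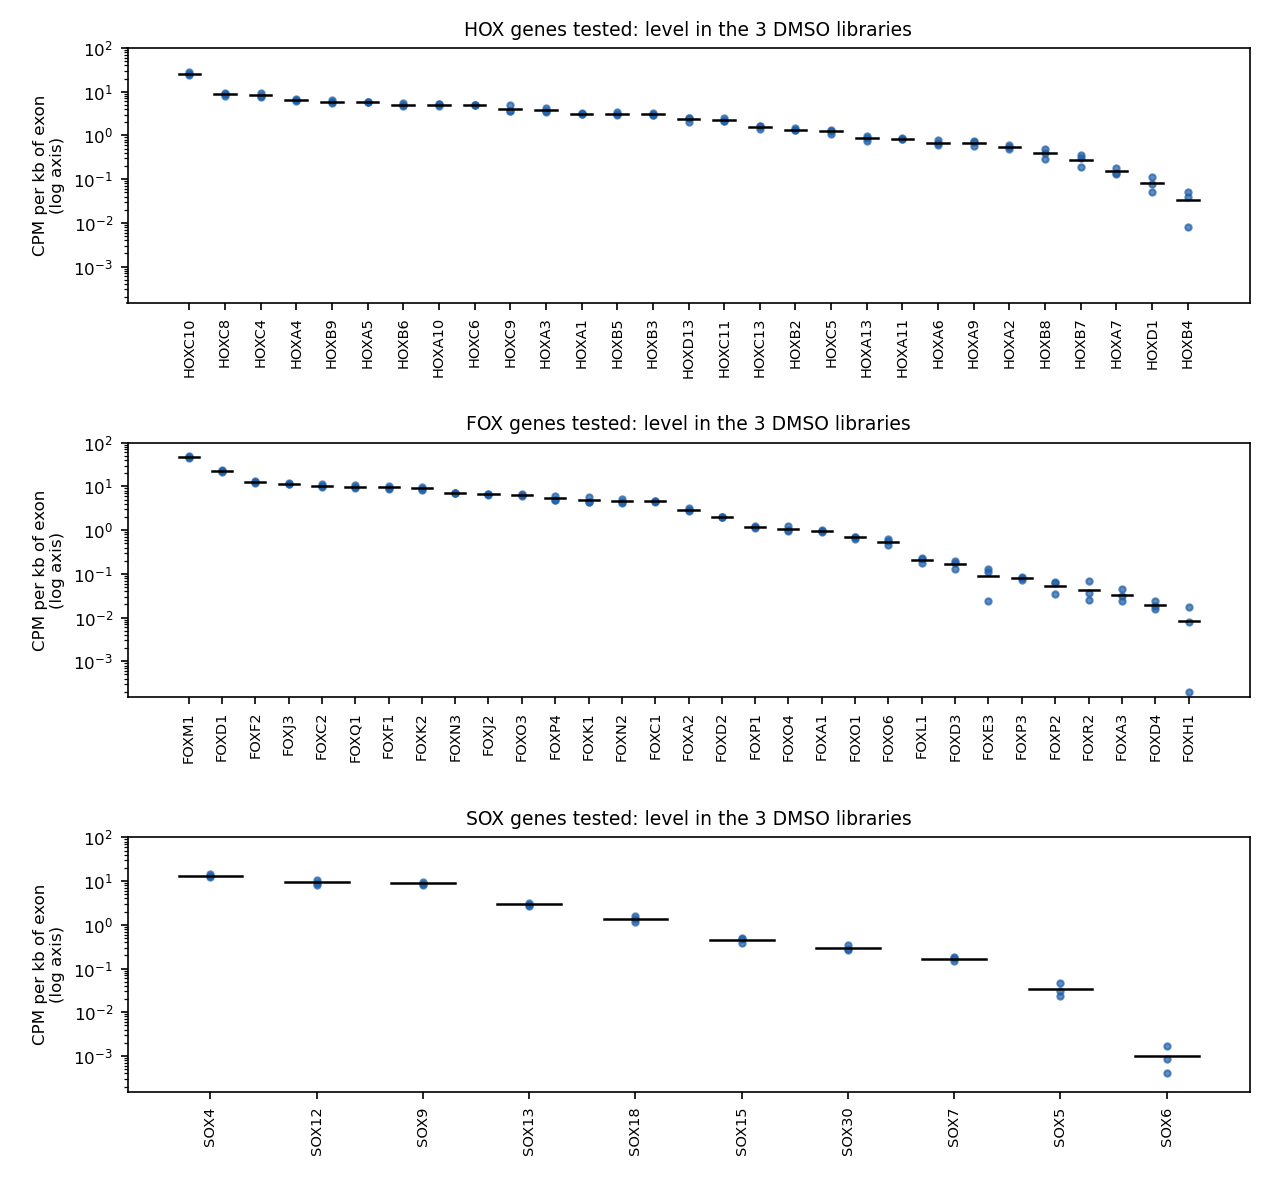
Level of each tested HOX, FOX and SOX gene in the 3 DMSO libraries, in CPM per kb of exon on a log axis. Points are libraries, the bar is their mean, and a library with 0 counts (1 of FOXH1) is drawn at the bottom of the axis. HOXC10, FOXM1 and SOX4 head their families, and levels within each family span more than 2 orders of magnitude.

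Promoter sequences are shown for a pair of genes from each family that ended on opposite sides of DMSO in the lapatinib combination, namely HOXA9 and HOXA13, FOXC1 and FOXQ1, and SOX4 and SOX12. Each line holds the 250 bases upstream of the RefSeq start in GRCh38.p14, read 5′ to 3′ on the gene's strand. Capitals mark a match, in either orientation, to TATAAA (the TATA box), to CCAAT (the box bound by NF-Y) or to GGGCGG (the GC box).
HOXA9: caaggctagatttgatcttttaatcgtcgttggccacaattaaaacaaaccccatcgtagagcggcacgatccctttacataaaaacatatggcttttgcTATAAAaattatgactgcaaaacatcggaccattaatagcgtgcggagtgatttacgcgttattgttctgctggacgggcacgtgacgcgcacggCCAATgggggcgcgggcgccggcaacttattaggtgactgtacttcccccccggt
HOXA13: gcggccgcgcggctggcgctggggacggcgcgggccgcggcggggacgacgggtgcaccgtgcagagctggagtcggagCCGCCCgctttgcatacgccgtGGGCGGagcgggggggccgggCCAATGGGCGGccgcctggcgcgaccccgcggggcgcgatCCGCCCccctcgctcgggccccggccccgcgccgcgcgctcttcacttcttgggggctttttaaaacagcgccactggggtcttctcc
FOXC1: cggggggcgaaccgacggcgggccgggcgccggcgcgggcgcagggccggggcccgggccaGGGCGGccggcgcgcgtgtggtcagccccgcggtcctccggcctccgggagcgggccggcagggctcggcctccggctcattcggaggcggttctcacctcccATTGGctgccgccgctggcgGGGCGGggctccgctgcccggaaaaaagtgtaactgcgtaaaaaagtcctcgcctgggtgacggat
FOXQ1: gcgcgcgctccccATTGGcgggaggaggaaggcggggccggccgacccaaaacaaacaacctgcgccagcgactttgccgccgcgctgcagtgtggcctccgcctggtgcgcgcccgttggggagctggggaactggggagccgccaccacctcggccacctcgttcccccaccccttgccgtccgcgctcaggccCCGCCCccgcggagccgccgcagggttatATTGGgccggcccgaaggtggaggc
SOX4: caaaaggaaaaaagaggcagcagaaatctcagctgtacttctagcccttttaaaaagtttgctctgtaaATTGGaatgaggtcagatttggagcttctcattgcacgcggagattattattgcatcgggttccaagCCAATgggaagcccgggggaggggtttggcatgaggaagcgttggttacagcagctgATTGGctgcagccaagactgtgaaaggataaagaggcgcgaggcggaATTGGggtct
SOX12: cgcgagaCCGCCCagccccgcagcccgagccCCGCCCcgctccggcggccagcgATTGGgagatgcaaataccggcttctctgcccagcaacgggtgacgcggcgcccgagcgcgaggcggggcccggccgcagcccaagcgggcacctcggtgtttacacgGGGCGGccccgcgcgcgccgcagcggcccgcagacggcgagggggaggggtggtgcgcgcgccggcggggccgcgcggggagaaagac
These windows lie at chr7:27165538-27165787 (minus strand) for HOXA9, chr7:27200092-27200341 (minus) for HOXA13, chr6:1609665-1609914 (plus) for FOXC1, chr6:1311848-1312097 (plus) for FOXQ1, chr6:21593501-21593750 (plus) for SOX4 and chr20:325302-325551 (plus) for SOX12. HOXA9 and SOX4 had a GC content of 48.8%, against 78.0% for HOXA13, 76.8% for FOXC1, 74.0% for FOXQ1 and 79.2% for SOX12. SOX4 held 8 CpG and 4 CCAAT matches on either strand, while SOX12 held 42 CpG, 1 CCAAT and 3 GGGCGG matches. HOXA9 was the only one of the 6 with TATAAA. Among 86 promoter windows of 63 member genes, 12 held TATAAA, 35 CCAAT and 49 GGGCGG. Among all 35116 RefSeq promoters of this length, 10.7% held TATAAA, 32.0% CCAAT and 42.6% GGGCGG, and the median number of CpG was 11, against 19 in the members' windows. A match is a description of letters and not a binding site.

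The first comparisons asked what each agent did alone at the doses used in the combinations. THZ531 0.1 µM lowered 4.31% and raised 1.78% of all tested genes (adjusted p under 0.05, edgeR quasi-likelihood test), and 1 member fell and 1 rose. SOX30, a testis-associated SOX gene, had 1.21, 0.975 and 0.927 CPM in the DMSO libraries and 0.391, 0.349 and 0.513 with THZ531 0.1 µM. The groups did not overlap, and log2 fold change (FC) was -1.31 (SE 0.27, adjusted p = 0.00624). HOXA10, a posterior HOX gene known from the uterus and from leukaemia, had 19.2, 17.2 and 19.5 CPM in DMSO and 24.8, 23.8 and 21.7 with THZ531 0.1 µM. All treated libraries were above DMSO, with a log2 FC of 0.33 (SE 0.10, adjusted p = 0.0431). The rise of HOXA10 lay close to the threshold and was lost with mitochondrial scaling (adjusted p = 0.39, edgeR), without the count filter and when single libraries were left out. An unadjusted p under 0.05 was reached by 5 of the 70 members.

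Lapatinib alone lowered 0.0561% and raised 0.256% of all tested genes, and nilotinib alone 0.0998% and 0.243%. None of the 70 members passed the edgeR test with either agent, where 2 members with lapatinib and 1 with nilotinib had an unadjusted p under 0.05, and DESeq2 called 1 member higher with each. HOXB9, which has been linked to breast cancer, had a log2 FC of 0.44 with lapatinib (adjusted p = 0.104, edgeR) and 0.48 with nilotinib (adjusted p = 0.0575, edgeR).

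The combinations and THZ531 1 µM were each compared with the same 3 DMSO libraries, so the comparisons are not independent and their values are given side by side. The lapatinib combination lowered 37.8% and raised 34.3% of all tested genes, the nilotinib combination 37.3% and 33.7%, and THZ531 1 µM 36.8% and 33.1%. Among the 70 members 24 fell and 25 rose with the lapatinib combination, 26 fell and 22 rose with the nilotinib combination, and 33 fell and 11 rose with THZ531 1 µM. Changes beyond a log2 FC of 1 were seen in 13 members that fell and 11 that rose with the lapatinib combination (all genes 21.3% and 7.9%), 14 and 8 with the nilotinib combination (20.8% and 6.54%), and 20 and 3 with THZ531 1 µM (18.9% and 5.77%). Without replicate 2 of THZ531 1 µM, 30 members fell and 14 rose with that treatment, against 34.9% and 31.1% of all genes tested in that fit. The falls of HOXC4, HOXA4 and FOXO3 then ended, and HOXA5, HOXC10 and HOXC9 passed as rises. The median log2 FC of the members was 0.15, -0.13 and -0.39 in that order, while the median of all tested genes was near 0 by the scaling used.

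These levels are relative to the bulk of nuclear transcripts in each library. The 13 mitochondrially encoded mRNAs, which a separate polymerase makes, all rose in the 3 treatments, with a median log2 FC of 0.68, 0.60 and 0.58. Scaled to those mRNAs, the median of all genes moved to -0.69, -0.63 and -0.55, and the members split into 37 lower and 11 higher with the lapatinib combination, 41 and 7 with the nilotinib combination, and 47 and 2 with THZ531 1 µM. All genes split into 58.4% lower and 5.30% higher under that scaling with the lapatinib combination, 55.9% and 4.83% with the nilotinib combination, and 52.5% and 4.35% with THZ531 1 µM. Every fall was still called under that scaling. Of the rises, 11 of 25 were still called with the lapatinib combination, 7 of 22 with the nilotinib combination, where HOXB2 turned to a fall, and 2 of 11 with THZ531 1 µM, those of FOXC1 and FOXH1. Calls below are those of the edgeR fit with TMM scaling. Values under another scaling are given for many, but not all, of the rises that it ends. The counts by family, cluster, paralogue number and span include such rises. The part of a global fall in mRNA in these values was not tested.

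**Figure D2:**
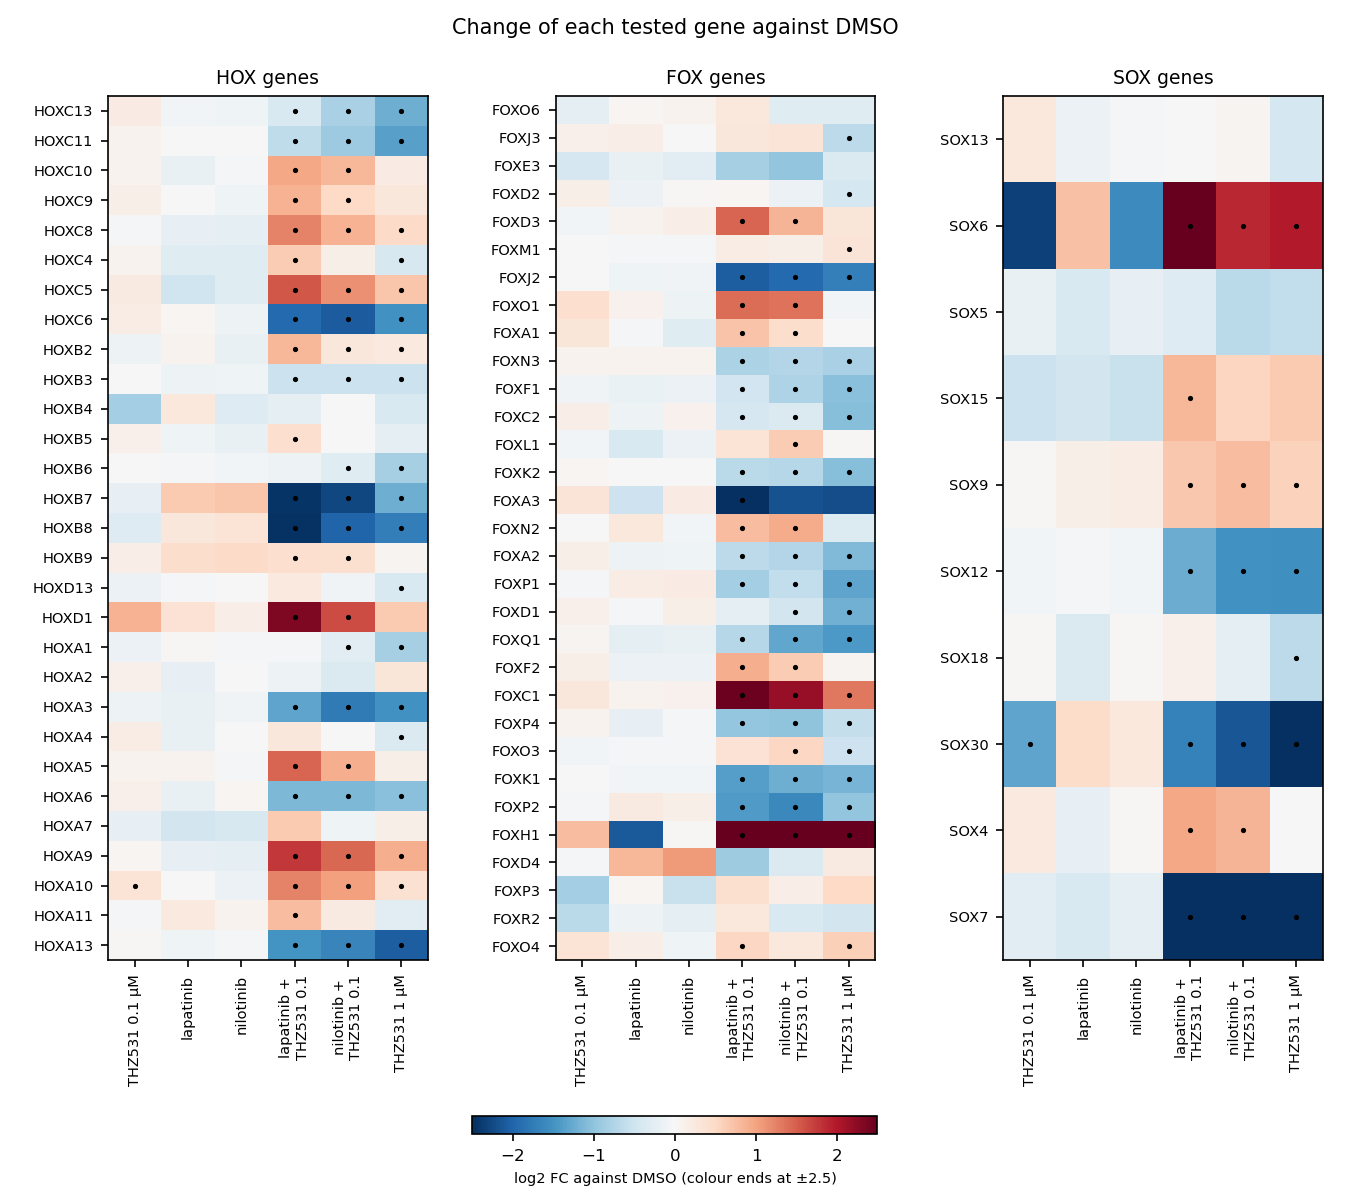
Log2 FC against DMSO of the tested HOX, FOX and SOX genes (rows, by family and position) in the 6 treatments (columns), with colours ending at 2.5 in either direction and dots at adjusted p under 0.05. The columns of the single low-dose agents hold 2 dots in all, while the combinations and THZ531 1 µM hold 44 to 49 each. Under mitochondrial scaling 14 of 25, 14 of 22 and 9 of 11 rises among these lose their call, and 1, with the nilotinib combination, turns into a called fall.

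Of the 29 tested HOX genes, 9 fell and 13 rose with the lapatinib combination, 11 fell and 10 rose with the nilotinib combination, and 14 fell and 5 rose with THZ531 1 µM, or 12 and 8 without its replicate 2. In that order the 3 treatments lowered 37.8%, 37.3% and 36.8% of all tested genes and raised 34.3%, 33.7% and 33.1%. The family median log2 FC was 0.28, -0.01 and -0.36. With mitochondrial scaling the first of these became -0.40, against -0.69 for all tested genes. HOXA9, HOXC5 and HOXA10 led the rises and HOXB8, HOXB7 and HOXC6 the falls called in all 3 treatments. With THZ531 1 µM, mitochondrial scaling ended the calls of HOXA9 (log2 FC 0.38, adjusted p = 0.0592), HOXC5 (0.15, adjusted p = 0.557) and HOXA10 (-0.16, adjusted p = 0.395). The HOXB7 call at that dose was lost with upper-quartile scaling (-1.01, adjusted p = 0.0568) and without DMSO replicate 2 or 3 or high-dose replicate 1 or 3, where adjusted p reached 0.113.

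HOXA9 (chr7:27162438-27165537, GRCh38), a posterior HOX gene best known for its part in leukaemia, had 2.26, 2.16 and 1.72 CPM in DMSO. It had 6.64, 6.76 and 7.42 CPM with the lapatinib combination, 5.42, 5.26 and 5.84 with the nilotinib combination and 3.75, 3.25 and 4.58 with THZ531 1 µM. All treated libraries were above all DMSO libraries, and both combinations were above the high dose. Log2 FC was 1.76 (SE 0.14, adjusted p = 4.33e-10), 1.43 (SE 0.13, adjusted p = 1.04e-08) and 0.91 (SE 0.14, adjusted p = 5.39e-06). HOXA10 (chr7:27170605-27179861), its neighbour, had 43.0, 45.5 and 42.6 CPM with the lapatinib combination, 35.1, 38.3 and 40.8 with the nilotinib combination and 25.8, 20.3 and 27.0 with THZ531 1 µM against 19.2, 17.2 and 19.5 in DMSO. Every treated library was again above DMSO, with log2 FC 1.23 (SE 0.10, adjusted p = 5.47e-10), 1.03 (SE 0.10, adjusted p = 7.86e-09) and 0.39 (SE 0.10, adjusted p = 0.00118). HOXA9 and HOXA10 share an annotated readthrough transcript, so their reads are not fully separable.

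HOXC5 had 2.09, 2.16 and 1.72 CPM in DMSO and 4.30, 6.72 and 6.50 with the lapatinib combination, 3.26, 5.12 and 4.72 with the nilotinib combination and 3.70, 2.92 and 3.06 with THZ531 1 µM. The treated libraries were all higher, and log2 FC was 1.55 (SE 0.19, adjusted p = 4.62e-07), 1.13 (SE 0.19, adjusted p = 2.68e-05) and 0.70 (SE 0.19, adjusted p = 0.00323). HOXC6 (chr12:54016888-54030823), which shares an annotated start with HOXC4 and HOXC5, went the other way. It had 16.8, 17.6 and 17.1 CPM in DMSO and 3.92, 5.11 and 4.38 with the lapatinib combination, 3.37, 3.94 and 4.81 with the nilotinib combination and 6.61, 5.33 and 5.98 with THZ531 1 µM. No treated library reached the DMSO range, and log2 FC was -1.94 (SE 0.11, adjusted p = 8.35e-12), -2.08 (SE 0.12, adjusted p = 3.39e-12) and -1.52 (SE 0.11, adjusted p = 3.64e-10). HOXC4, the third gene of this group, had 21, 25.6 and 22.2 CPM in DMSO, 29.3, 41.0 and 36.7 with the lapatinib combination, 21.2, 27.6 and 27.6 with the nilotinib combination and 19.9, 12.8 and 19.5 with THZ531 1 µM. It rose with the lapatinib combination (log2 FC 0.64), was not called with the nilotinib combination (0.15) and fell with THZ531 1 µM (-0.40). The rise ended under mitochondrial scaling (-0.04, adjusted p = 0.840). The fall ended without replicate 2 of the high dose (-0.22, adjusted p = 0.163), without DMSO replicate 2 (-0.31, adjusted p = 0.104) and with upper-quartile scaling (-0.20, adjusted p = 0.203).

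HOXB8 and HOXB7, which lie next to each other, were weakly expressed. HOXB8 had 0.710, 1.16 and 0.953 CPM in DMSO and 0.186, 0.186 and 0.134 with the lapatinib combination, 0.216, 0.173 and 0.308 with the nilotinib combination and 0.178, 0.367 and 0.300 with THZ531 1 µM. Log2 FC was -2.47 (SE 0.31, adjusted p = 5.85e-07), -2.01 (SE 0.30, adjusted p = 5.10e-06) and -1.73 (SE 0.29, adjusted p = 2.38e-05), with no overlap between treated and DMSO libraries. HOXB7 had 0.290, 0.457 and 0.536 CPM in DMSO and 0.120, 0.0766 and 0.0334 with the lapatinib combination, 0.130, 0.0432 and 0.0880 with the nilotinib combination and 0.168, 0.283 and 0.0963 with THZ531 1 µM, with log2 FC -2.46 (SE 0.53, adjusted p = 3.48e-04), -2.28 (SE 0.52, adjusted p = 5.89e-04) and -1.22 (SE 0.46, adjusted p = 0.0243). HOXB9 and HOXB2 of the same cluster rose with the lapatinib combination (log2 FC 0.42 and 0.83), though neither was called under mitochondrial scaling (-0.27 and 0.14).

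Of the HOX genes with the highest levels, HOXC10, HOXC8 and HOXA4 remain to be described. HOXC10 had 58.7, 65.9 and 59.3 CPM in DMSO and 101, 129 and 129 with the lapatinib combination, 94.3, 112 and 122 with the nilotinib combination and 75.8, 60.2 and 75.1 with THZ531 1 µM. It rose with both combinations, with log2 FC 0.97 (SE 0.10, adjusted p = 5.50e-08) and 0.84 (SE 0.10, adjusted p = 4.24e-07), calls that mitochondrial scaling ended (0.28, adjusted p = 0.0719 and 0.21, adjusted p = 0.181). With THZ531 1 µM the edgeR fit did not call it (log2 FC 0.20, adjusted p = 0.0874), while DESeq2 (0.23, adjusted p = 0.0408), RLE scaling, upper-quartile scaling and the fit without high-dose replicate 2 (0.30, adjusted p = 0.0132) called it higher. HOXC8 had 19.6, 23.2 and 21.3 CPM in DMSO and 39.6, 52.9 and 57.7 with the lapatinib combination, 29.9, 40.3 and 46.2 with the nilotinib combination and 35.8, 21.6 and 32.1 with THZ531 1 µM. It rose in all 3, with log2 FC 1.23, 0.86 and 0.48, and the high-dose libraries overlapped DMSO. Mitochondrial scaling ended the calls with the nilotinib combination (0.24, adjusted p = 0.206) and THZ531 1 µM (-0.07, adjusted p = 0.753), and the latter was also lost without DMSO replicate 1 or high-dose replicate 1 or 3. HOXA4 had 10.9, 11.5 and 10.4 CPM in DMSO and 10.5, 15.1 and 14.4 with the lapatinib combination, 8.09, 11.7 and 12.9 with the nilotinib combination and 9.22, 6.77 and 9.57 with THZ531 1 µM. In the combinations edgeR did not call it (log2 FC 0.28 and -0.01), although DESeq2 called it higher with the lapatinib combination (0.34, adjusted p = 0.0408). Its fall with THZ531 1 µM (-0.36, adjusted p = 0.0450) lay at the threshold and was lost with DESeq2 (-0.33, adjusted p = 0.0503), without high-dose replicate 2 (-0.22, adjusted p = 0.229), whichever DMSO library was left out, and with RLE or upper-quartile scaling, the stricter filter or halved counts.

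HOXA5 and HOXA13 were picked after their values were seen, as opposite cases within HOXA. HOXA5, a HOX gene of lung development, had 10.2, 10.2 and 10.1 CPM in DMSO and 25.8, 28.6 and 29.3 with the lapatinib combination, 17.2, 19.0 and 21.5 with the nilotinib combination and 12.7, 7.34 and 13.6 with THZ531 1 µM. It rose with the combinations, with log2 FC 1.45 (SE 0.15, adjusted p = 3.27e-08) and 0.92 (SE 0.15, adjusted p = 1.54e-05), the second of which ended under mitochondrial scaling (0.29, adjusted p = 0.139). With THZ531 1 µM it was not called (0.14), but it was called higher without replicate 2 of that group (0.37, adjusted p = 0.00183) and lower under mitochondrial scaling (-0.41, adjusted p = 0.0381). HOXA13, the most posterior gene of the cluster and a factor of limb and urogenital development, had 4.82, 3.74 and 4.51 CPM in DMSO and 0.950, 1.85 and 1.86 with the lapatinib combination, 0.907, 1.52 and 1.70 with the nilotinib combination and 1.07, 0.691 and 1.39 with THZ531 1 µM. All treated libraries were lower, with log2 FC -1.49 (SE 0.24, adjusted p = 1.28e-05), -1.66 (SE 0.24, adjusted p = 3.88e-06) and -2.05 (SE 0.25, adjusted p = 3.55e-07).

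Direction did not follow the cluster as a whole. With the lapatinib combination 3 fell and 4 rose of 11 tested HOXA genes, 3 fell and 3 rose of 8 HOXB genes, 3 fell and 5 rose of 8 HOXC genes, and HOXD1 rose while HOXD13 was not called. With THZ531 1 µM the counts were 5 and 2 in HOXA, 4 and 1 in HOXB, 4 and 2 in HOXC, and 1 and 0 in HOXD. Over all tested genes 37.8% fell and 34.3% rose with the lapatinib combination, and 36.8% and 33.1% with THZ531 1 µM. Grouped by paralogue number, the lapatinib combination lowered 2 and raised 3 of the 9 tested genes numbered 1 to 4, lowered 4 and raised 4 of 10 numbered 5 to 8, and lowered 3 and raised 6 of 10 numbered 9 to 13. Of the 13 HOX rises with that combination, mitochondrial scaling kept 6 and ended 7. HOXD1 had few reads, with 0.145, 0.216 and 0.0936 CPM in DMSO and 0.557, 0.853 and 0.880 with the lapatinib combination.

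**Figure D3:**
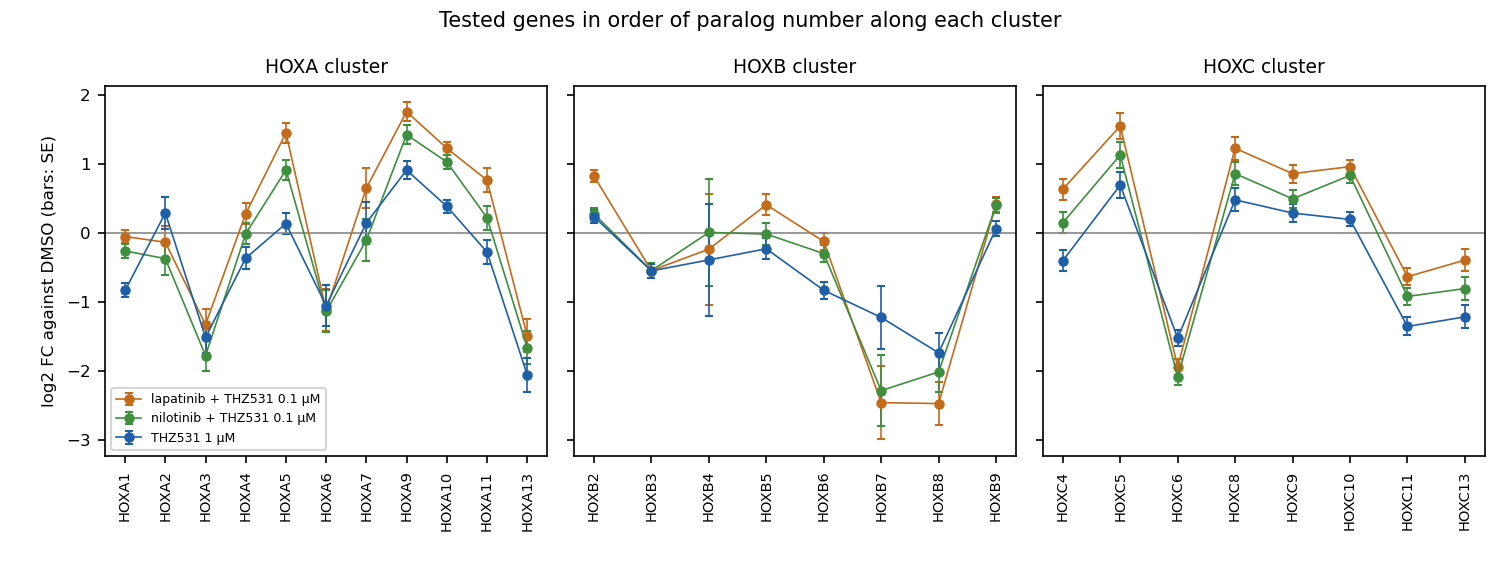
Log2 FC against DMSO (± SE) of the tested genes of the HOXA, HOXB and HOXC clusters in the lapatinib combination, the nilotinib combination and THZ531 1 µM, with genes in cluster order. Falls such as HOXA13, HOXB8 and HOXC6 stand beside rises such as HOXA10, HOXA9 and HOXC5, and in most genes the high dose lies below the lapatinib combination; mitochondrial scaling shifts all values down.

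Of the 31 tested FOX genes, 12 fell and 8 rose with the lapatinib combination, 12 fell and 9 rose with the nilotinib combination, and 15 fell and 4 rose with THZ531 1 µM, or 14 and 4 without its replicate 2. In that order the 3 treatments lowered 37.8%, 37.3% and 36.8% of all tested genes and raised 34.3%, 33.7% and 33.1%. The median log2 FC of the FOX genes was 0.04, -0.35 and -0.47. With mitochondrial scaling the first became -0.65, against -0.69 for all tested genes. FOXC1 and FOXH1 rose in all 3 treatments, and FOXJ2, FOXP2 and FOXK1 led the falls called in all 3.

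FOXC1 (chr6:1609915-1613897), a 1-exon gene whose product is studied as a mark of basal-like breast cancer, had 17.7, 18.7 and 18.2 CPM in DMSO. It had 81.7, 107 and 108 CPM with the lapatinib combination, 63.1, 87.3 and 95.6 with the nilotinib combination and 57.0, 33.4 and 46.6 with THZ531 1 µM. Every treated library was above the DMSO range, and the combinations were above the high dose. Log2 FC was 2.44 (SE 0.16, adjusted p = 5.70e-11), 2.17 (SE 0.16, adjusted p = 3.20e-10) and 1.33 (SE 0.16, adjusted p = 3.56e-07). FOXC2, its close relative, which is tied to mesenchymal traits, fell in all 3 (log2 FC -0.43, -0.36 and -1.06). FOXQ1, a forkhead factor linked to epithelial to mesenchymal transition and picked after its values were seen, had 24.3, 28.7 and 25.2 CPM in DMSO and 13.0, 17.1 and 17.7 with the lapatinib combination, 9.54, 11.4 and 11.0 with the nilotinib combination and 10.6, 6.95 and 11.4 with THZ531 1 µM. It fell in all 3, with log2 FC -0.71 (SE 0.14, adjusted p = 1.95e-04), -1.29 (SE 0.15, adjusted p = 1.58e-07) and -1.43 (SE 0.15, adjusted p = 4.63e-08). FOXH1, a partner of SMAD proteins, rose from almost no reads, with 2, 4 and 0 counts in DMSO and 34, 42 and 35 with the lapatinib combination, 27, 21 and 44 with the nilotinib combination and 30, 28 and 31 with THZ531 1 µM. FOXH1 overlaps KIFC2, and the counting did not separate strands.

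FOXJ2, a widely expressed forkhead gene, had 41.3, 43.2 and 39.2 CPM in DMSO and 7.67, 11.9 and 10.3 with the lapatinib combination, 8.56, 11.0 and 12.5 with the nilotinib combination and 14.7, 9.04 and 14.0 with THZ531 1 µM. The treated libraries lay far below DMSO, with log2 FC -2.05 (SE 0.17, adjusted p = 1.05e-09), -1.95 (SE 0.17, adjusted p = 2.31e-09) and -1.71 (SE 0.16, adjusted p = 1.62e-08). FOXK1, which takes part in control of glycolysis and autophagy, had 58.2, 73.5 and 58.8 CPM in DMSO and 20.6, 29.3 and 23.5 with the lapatinib combination, 22.8, 26.5 and 32.4 with the nilotinib combination and 35.7, 18.1 and 31.6 with THZ531 1 µM. It fell in all 3, with log2 FC -1.38 (SE 0.20, adjusted p = 3.65e-06), -1.22 (SE 0.20, adjusted p = 1.62e-05) and -1.16 (SE 0.20, adjusted p = 3.09e-05). FOXK2 fell too (-0.68, -0.72 and -1.07). FOXP2, known for its part in speech and brain development, was low, with 1.04, 1.08 and 0.562 CPM in DMSO and 0.175, 0.372 and 0.456 with the lapatinib combination, 0.248, 0.378 and 0.253 with the nilotinib combination and 0.661, 0.419 and 0.278 with THZ531 1 µM, and its log2 FC was -1.42, -1.60 and -0.98, with overlap of DMSO and THZ531 1 µM libraries and no call at that dose without its replicate 3 (-0.72, adjusted p = 0.0569). FOXP1 and FOXP4 fell in all 3 as well, with log2 FC of -0.84 and -0.97 in the lapatinib combination.

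The FOXO genes act downstream of AKT and were described as a set after their values were seen. FOXO1 had 4.22, 4.15 and 3.79 CPM in DMSO, 9.78, 10.7 and 11.3 with the lapatinib combination, 8.95, 10.4 and 12.0 with the nilotinib combination and 4.65, 2.01 and 4.90 with THZ531 1 µM. It rose with both combinations, with log2 FC 1.39 (SE 0.21, adjusted p = 4.76e-06) and 1.36 (SE 0.20, adjusted p = 6.22e-06), and was not called with THZ531 1 µM (-0.07), where replicate 2 lay below and the others above the DMSO range. Mitochondrial scaling left the rises called (0.70 and 0.74) and made the high-dose value a fall (-0.62, adjusted p = 0.00913), and without replicate 2 that value was 0.24, adjusted p = 0.108. FOXO3 had 48.4, 51.1 and 46.4 CPM in DMSO and 50.7, 70.0 and 66.5 with the lapatinib combination, 53.2, 72.3 and 84.1 with the nilotinib combination and 42.2, 22.1 and 37.4 with THZ531 1 µM. It was not called with the lapatinib combination by edgeR (0.36) but was by DESeq2 (0.41, adjusted p = 0.0278), rose with the nilotinib combination (0.52) and fell with THZ531 1 µM (-0.52). The rise ended under mitochondrial scaling (-0.11, adjusted p = 0.596) and the fall without high-dose replicate 2 (-0.29, adjusted p = 0.0887). FOXO4 rose with the lapatinib combination (0.52) and THZ531 1 µM (0.60), calls that mitochondrial scaling ended (-0.16 and 0.06), and had 0.26 with the nilotinib combination, called by DESeq2 but not by edgeR. FOXO6 was not called in any of the 3 (0.26, -0.30 and -0.30).

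FOXM1, the most highly expressed FOX gene per length, showed changes whose direction depended on the scaling. It had 219, 243 and 228 CPM in DMSO and 234, 267 and 282 with the lapatinib combination, 236, 262 and 266 with the nilotinib combination and 287, 298 and 281 with THZ531 1 µM. Against DMSO edgeR called it higher with THZ531 1 µM, at log2 FC 0.33 (SE 0.09, adjusted p = 0.00220), and not with the combinations (0.18 and 0.15). DESeq2 called those too (0.24, adjusted p = 0.0114 and 0.20, adjusted p = 0.0373), as did RLE and upper-quartile scaling and the replicate block, whereas mitochondrial scaling called both lower (-0.50 and -0.47) and ended the high-dose call (-0.21, adjusted p = 0.195). FOXM1 overlaps RHNO1 and ITFG2. FOXD1, next in level, had 59.6, 68.1 and 65.1 CPM in DMSO and 45.5, 61.0 and 56.1 with the lapatinib combination, 42.2, 51.8 and 46.3 with the nilotinib combination and 30.9, 21.8 and 31.7 with THZ531 1 µM, and fell with the nilotinib combination (-0.46) and THZ531 1 µM (-1.19). FOXF2 had 28.9, 32.0 and 31.4 CPM in DMSO and 49.6, 60.7 and 63.7 with the lapatinib combination, 37.7, 50.0 and 56.0 with the nilotinib combination and 36.9, 23.0 and 37.2 with THZ531 1 µM. It rose with the combinations (0.92 and 0.64), though not under mitochondrial scaling (0.23, adjusted p = 0.241 and 0.01, adjusted p = 0.971). Its paralogue FOXF1 fell in all 3 (-0.48, -0.77 and -1.04). FOXJ3 had 83.5, 79.3 and 77.8 CPM in DMSO and 87.8, 108 and 97.2 with the lapatinib combination, 85.2, 101 and 115 with the nilotinib combination and 60.6, 34.2 and 58.9 with THZ531 1 µM, and fell with THZ531 1 µM (-0.65). With the nilotinib combination it lay at the threshold (0.33, adjusted p = 0.0502), and DESeq2 called it higher with both combinations (0.34, adjusted p = 0.0347 and 0.37, adjusted p = 0.0192), as did the fit without high-dose replicate 2, while mitochondrial scaling called it lower with the lapatinib combination (-0.40).

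**Figure D4:**
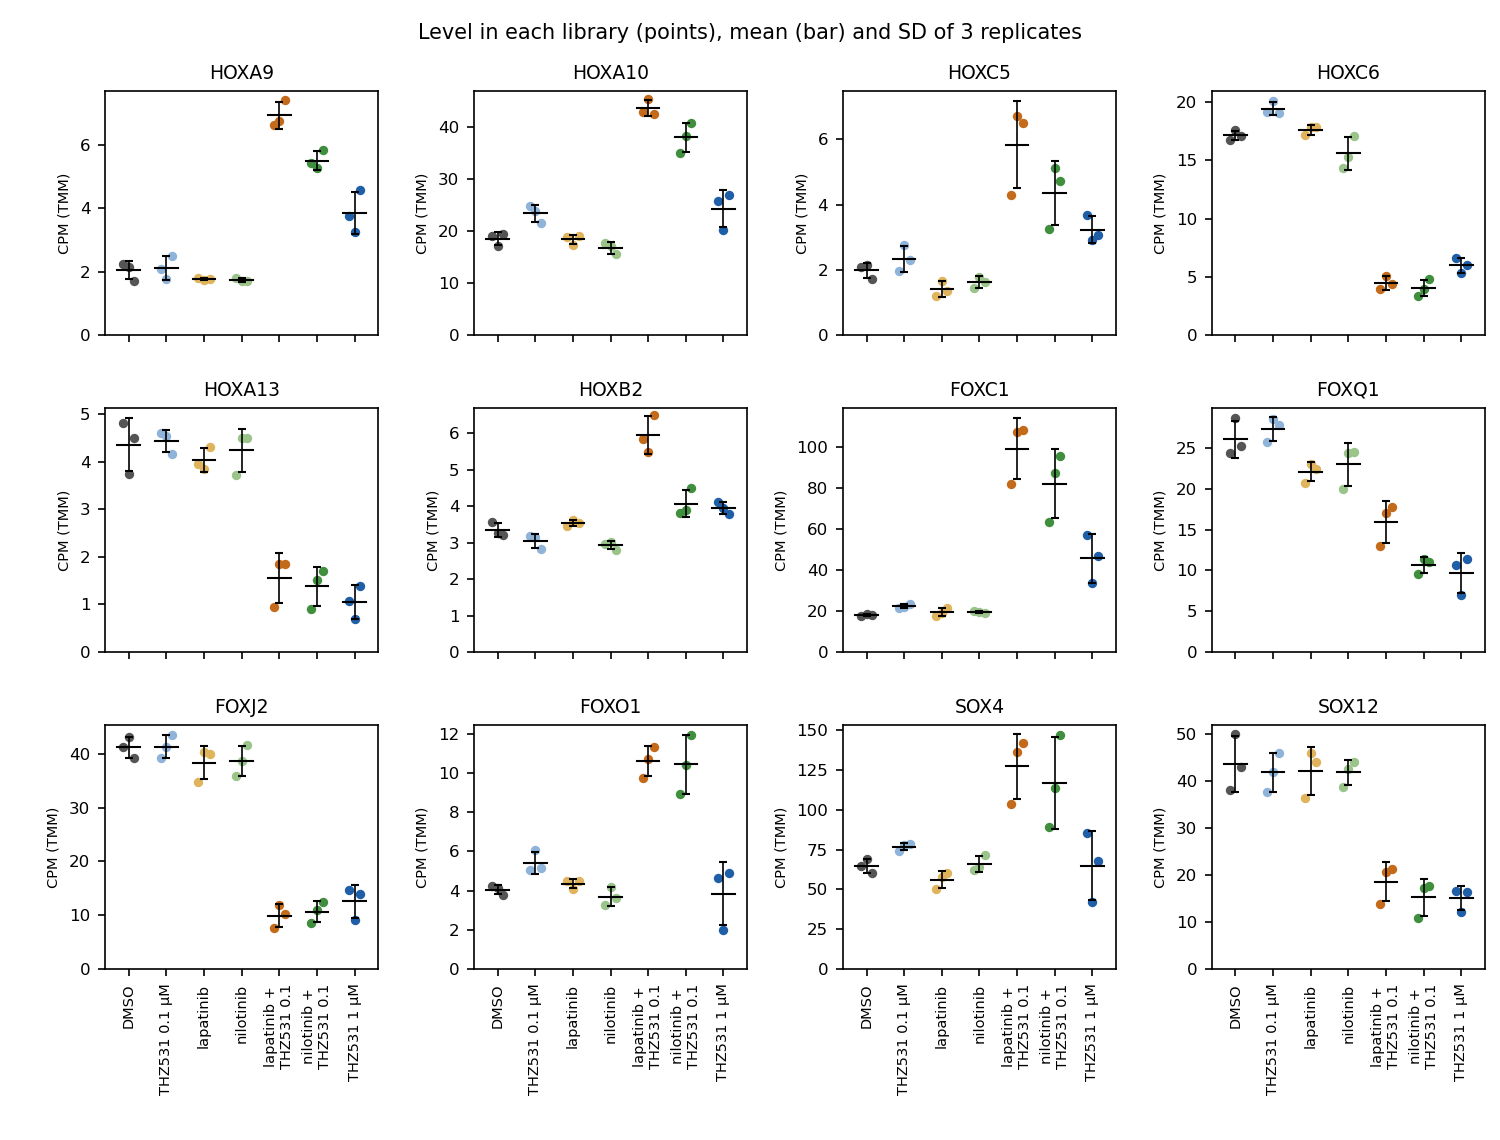
Level of 12 HOX, FOX and SOX genes in all 21 libraries, in CPM after TMM scaling, with points for libraries, a bar for the mean and an error bar for the SD of 3. The combinations and THZ531 1 µM stand apart from DMSO and the single low-dose agents for genes such as HOXC6, FOXC1 and FOXJ2, while FOXO1 and SOX4 are high in the combinations and near DMSO on average at the high dose; under mitochondrial scaling the FOXO1 rises are still called and the SOX4 rises are not.

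Of the 10 tested SOX genes, 3 fell and 4 rose with the lapatinib combination, 3 fell and 3 rose with the nilotinib combination, and 4 fell and 2 rose with THZ531 1 µM, with or without its replicate 2. In that order the 3 treatments lowered 37.8%, 37.3% and 36.8% of all tested genes and raised 34.3%, 33.7% and 33.1%. The median log2 FC of the SOX genes was 0.06, -0.07 and -0.53. With mitochondrial scaling the first became -0.62, against -0.69 for all tested genes. SOX12, SOX7 and SOX30 fell in all 3 treatments, and SOX9 and SOX6 rose in all 3.

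SOX4 had 65.0, 69.4 and 60.2 CPM in DMSO and 104, 137 and 142 with the lapatinib combination, 89.5, 114 and 147 with the nilotinib combination and 85.4, 41.9 and 67.7 with THZ531 1 µM. It rose with both combinations, with log2 FC 0.97 (SE 0.19, adjusted p = 1.23e-04) and 0.85 (SE 0.19, adjusted p = 5.06e-04), calls that mitochondrial scaling ended (0.28, adjusted p = 0.135 and 0.21, adjusted p = 0.276). It showed no call at the high dose (0.00), where replicate 2 was below all DMSO libraries and replicate 1 above them. SOX12, a 1-exon gene of the same SOXC group, had 38.2, 49.9 and 43.0 CPM in DMSO and 13.8, 20.7 and 21.3 with the lapatinib combination, 10.8, 17.3 and 17.7 with the nilotinib combination and 16.6, 12.2 and 16.5 with THZ531 1 µM. All treated libraries were below DMSO, with log2 FC -1.23 (SE 0.18, adjusted p = 4.04e-06), -1.52 (SE 0.18, adjusted p = 3.03e-07) and -1.53 (SE 0.18, adjusted p = 3.05e-07). SOX4 and SOX12 lay on opposite sides of DMSO in the combinations under the main scaling.

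SOX9 had 33.7, 37.8 and 32.4 CPM in DMSO and 46, 58.7 and 61.7 with the lapatinib combination, 47.5, 57.8 and 72.5 with the nilotinib combination and 68.5, 39.7 and 47.5 with THZ531 1 µM. Every treated library was above DMSO, with log2 FC 0.68 (SE 0.17, adjusted p = 0.00155), 0.77 (SE 0.17, adjusted p = 4.97e-04) and 0.58 (SE 0.17, adjusted p = 0.00534). Mitochondrial scaling ended all 3 calls (-0.0090 with the lapatinib combination, 0.14, adjusted p = 0.445, and 0.01, adjusted p = 0.950), and the high-dose call was also lost without its replicate 1 (0.33, adjusted p = 0.0732). SOX13 had 20.3, 23.8 and 20.9 CPM in DMSO and 15.1, 27.8 and 22.3 with the lapatinib combination, 13.5, 25.5 and 29.4 with the nilotinib combination and 18.6, 10.4 and 19.0 with THZ531 1 µM. It was not called in any of them, overlapping DMSO in both combinations and lying below it at the high dose (log2 FC -0.44, adjusted p = 0.118). SOX30, which THZ531 0.1 µM already lowered, had 150, 113 and 109 counts in DMSO and 17, 32 and 39 with the lapatinib combination, 18, 33 and 14 with the nilotinib combination and 10, 7 and 15 with THZ531 1 µM, with log2 FC -1.68 (SE 0.29, adjusted p = 2.62e-05), -2.14 (SE 0.30, adjusted p = 2.26e-06) and -3.19 (SE 0.33, adjusted p = 4.22e-08). Lapatinib and nilotinib alone left it at 1.63, 1.18 and 1.47 and 1.30, 1.23 and 1.18 CPM, against 1.21, 0.975 and 0.927 in DMSO. SOX7, an endothelial SOX gene, had 59, 66 and 69 counts in DMSO and 2, 0 and 6 with the lapatinib combination, 0, 4 and 4 with the nilotinib combination and 0, 4 and 7 with THZ531 1 µM, and fell in all 3. SOX6, a partner of SOX9 in cartilage, had 1, 4 and 2 counts in DMSO and 10, 10 and 20 with the lapatinib combination, 6, 9 and 6 with the nilotinib combination and 2, 7 and 14 with THZ531 1 µM, so its calls rest on few reads. Those with the nilotinib combination and THZ531 1 µM were both lost without the count filter, under mitochondrial scaling, and without DMSO replicate 1 or 3.

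The next comparison asked how a kinase inhibitor with THZ531 0.1 µM differed from THZ531 1 µM. The lapatinib combination was lower than the high dose for 16.1% and higher for 12.8% of all tested genes, with a median log2 difference of -0.02. Among the 70 members 2 were lower and 38 higher, with a median of 0.56. The 38 were 19 of 29 HOX genes, 16 of 31 FOX genes and 3 of 10 SOX genes, and the 2 lower were HOXC6 (-0.42) and FOXP4 (-0.38). The HOXC6 call was lost without high-dose replicate 1 (-0.34, adjusted p = 0.0508). Without replicate 2 of THZ531 1 µM, 3 were lower and 33 higher, against 13.6% and 9.01% of all tested genes, and under mitochondrial scaling 3 were lower and 32 higher. In 35 of the 70 members all 3 combination libraries lay above all 3 high-dose libraries and in 2 below, against 15.9% and 19.7% of all tested genes.

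The nilotinib combination was lower than the high dose for 13.0% and higher for 11.2% of all tested genes. It was lower for 2 members, HOXC6 (-0.56) and FOXP4 (-0.42), and higher for 22, of which 11 were HOX, 9 FOX and 2 SOX genes. Under mitochondrial scaling 3 members were lower and 16 higher, against 9.68% and 5.36% of all tested genes. Of those 16, 6 were HOX, 9 FOX and 1 SOX genes. Without replicate 2 of the high dose the counts were 2 and 15, against 10.9% and 7.53% of all tested genes. The 7 that ended were the higher calls of FOXF2, HOXA11, HOXB9, HOXC11, HOXC4, HOXD1 and SOX30, and with the lapatinib combination the 5 that ended were those of FOXA2, FOXF1, FOXK2, FOXP1 and HOXB9. The high-dose libraries are shared by both comparisons.

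FOXO1, HOXA5, FOXN2, FOXC1 and HOXC11 were picked after their values were seen as examples from different groups. FOXO1 was higher by a log2 difference of 1.46 (SE 0.21, adjusted p = 2.51e-05) with the lapatinib combination and 1.44 (SE 0.21, adjusted p = 3.63e-05) with the nilotinib combination. HOXA5 differed by 1.32 (SE 0.15, adjusted p = 2.51e-06) and 0.78 (SE 0.15, adjusted p = 5.74e-04). FOXN2, a forkhead gene of little known function, had 41.8, 48.9 and 39.2 and 42.1, 44.6 and 56.7 CPM in the combinations against 24.0, 13.2 and 22.6 at the high dose. Its differences were 1.12 (SE 0.16, adjusted p = 2.95e-05) and 1.26 (SE 0.16, adjusted p = 1.05e-05), with no overlap of libraries. FOXC1 differed by 1.12 (SE 0.16, adjusted p = 2.30e-05) and 0.84 (SE 0.16, adjusted p = 4.31e-04). HOXC11 fell in all 3 treatments but less in the lapatinib combination, at 3.82, 5.56 and 5.00 CPM against 3.35, 2.51 and 2.86 at the high dose and 7.03, 8.18 and 7.04 in DMSO, a log2 difference between the treatments of 0.72 (SE 0.13, adjusted p = 3.18e-04). HOXC11 overlaps HOTAIR. Without high-dose replicate 2 the lapatinib differences were 1.15 for FOXO1, 1.08 for HOXA5, 0.89 for FOXN2, 0.93 for FOXC1 and 0.63 for HOXC11, and all were still called.

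**Figure D5:**
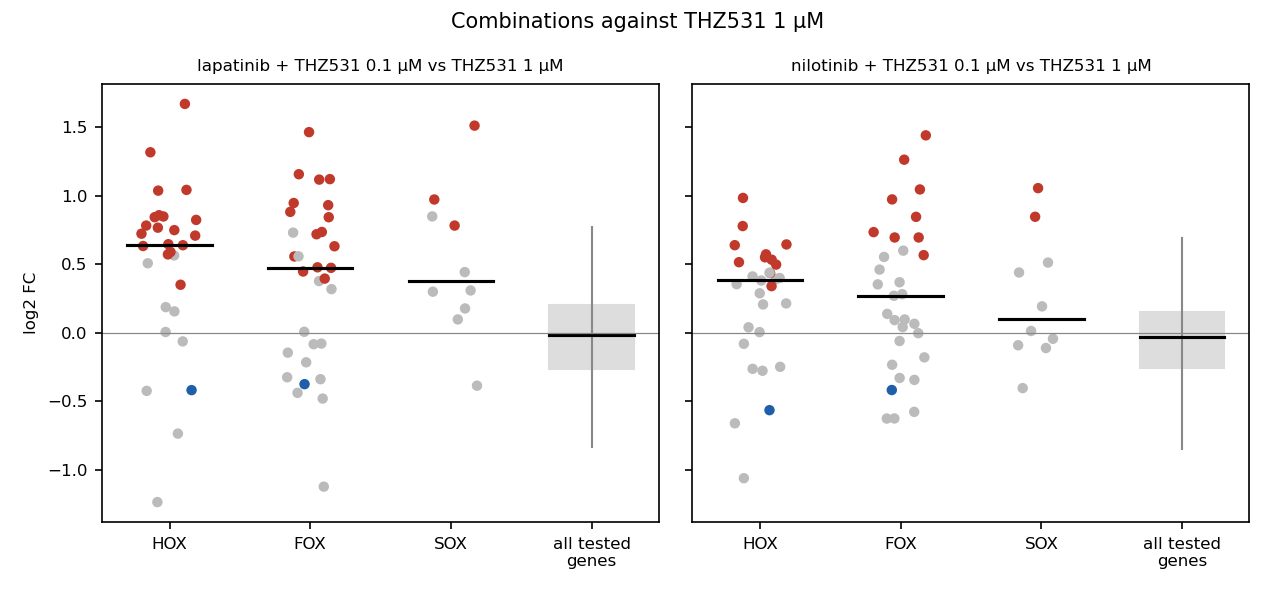
Log2 difference of each combination against THZ531 1 µM for the tested members of each family, with red for higher and blue for lower at adjusted p under 0.05 and grey for not called, the black line at the median, and a box (25 to 75%) and line (5 to 95%) for all tested genes. The HOX and FOX medians lie at 0.64 and 0.47 for the lapatinib combination and at 0.38 and 0.27 for the nilotinib combination, and 38 and 22 members are higher, or 32 and 16 under mitochondrial scaling.

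Members were then split by genomic span. Of the 47 tested members with a genomic span under 10 kb, none was lower and 29 (61.7%) were higher in the lapatinib combination than with THZ531 1 µM, while of all 2828 protein-coding genes of that span 6.05% were lower and 19.5% higher. Of the 23 members of 10 kb or more, 2 were lower and 9 higher, against 20.7% and 12.5% of all 10919 long protein-coding genes. Against DMSO the lapatinib combination lowered 13 and raised 20 of the short members, with a median log2 FC of 0.26, and lowered 11 and raised 5 of the long ones, with a median of -0.32. Over all short protein-coding genes 28.8% fell and 47.1% rose, with a median of 0.34, and over the long ones 43.8% fell and 30.3% rose, with a median of -0.16. Against DMSO, short genes stood higher than long genes both among the members and over all protein-coding genes. Whether the short genes rose depends on the scaling, since the median of all tested genes moved to -0.69 under mitochondrial scaling. These splits by span were counted in the main fit only, with replicate 2 of THZ531 1 µM included. Zinc finger genes, another large family of DNA-binding factors, had 326 lower and 32 higher of 416 tested with the lapatinib combination and a median log2 FC of -1.55, but against THZ531 1 µM they had 78 lower and 69 higher and a median of -0.04.

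The combinations differed little from each other. The lapatinib combination was lower than the nilotinib combination for 0.736% and higher for 0.73% of all tested genes, and 1 member passed. HOXB2, an anterior HOX gene, had 5.84, 5.49 and 6.50 CPM with lapatinib and THZ531 and 3.8, 3.90 and 4.49 with nilotinib and THZ531, against 4.12, 3.96 and 3.79 with THZ531 1 µM and 3.57, 3.25 and 3.22 in DMSO. The combination libraries did not overlap, and the log2 difference was 0.55 (SE 0.09, adjusted p = 0.00449). In 15 of the 70 members all libraries of the lapatinib combination were above those of the nilotinib combination and in none below, against 7.58% and 6.66% of all tested genes, and DESeq2 called 5 members higher.

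Between the doses of THZ531, 35.9% of all tested genes were lower and 34.3% higher at 1 µM than at 0.1 µM, and 35 members were lower and 11 higher. HOXA13 (-2.08), FOXJ2 (-1.72) and SOX30 (-1.88) were among the lower, and HOXA9 (0.87) and FOXC1 (1.04) among the higher. The interaction of lapatinib with THZ531 0.1 µM, which tests whether the combination departs from the sum of both log2 effects, was below 0 for 32.0% and above 0 for 28.2% of all tested genes, and for 19 and 23 members. That of nilotinib was below 0 for 31.2% and above 0 for 25.6% of all genes, and for 23 and 18 members. FOXC1 had interaction values of 2.06 (SE 0.22, adjusted p = 1.49e-07) with lapatinib and 1.78 (SE 0.22, adjusted p = 1.16e-06) with nilotinib.

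Genes that work with these families were counted from lists drawn from textbook knowledge. Over all tested genes 37.8% fell and 34.3% rose with the lapatinib combination, and 36.8% and 33.1% with THZ531 1 µM. Of 20 HOX cofactors and regulators, 13 fell and 4 rose with the lapatinib combination, and 14 fell and 2 rose with THZ531 1 µM. MEIS1 (-3.39) and PKNOX2 (-2.59), which join HOX and PBX proteins on DNA, had the largest falls in the lapatinib combination. EZH2 (0.54) and RNF2 (0.43) had the largest rises there and were not called with THZ531 1 µM (-0.14 and -0.26). Both are Polycomb genes, but the Polycomb genes of the list were split. BMI1 rose too (0.36), while SUZ12 (-1.61) and EED (-0.36) fell with the lapatinib combination. PBX2 fell with THZ531 0.1 µM (log2 FC -1.15, adjusted p = 0.0387, edgeR). Of 14 tested noncoding RNAs of the HOX clusters, 3 fell and 8 rose with the lapatinib combination, with HOTAIR (-0.99) and HOXA11-AS (-0.87) lowest and HOXA-AS3 (2.80) and HOTTIP (1.94) highest. Many of these overlap HOX genes on the other strand, which unstranded counts do not separate.

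The counts that follow stand beside the same shares of all tested genes, 37.8% lower and 34.3% higher with the lapatinib combination. Of 20 FOXM1 target genes of mitosis, 14 fell and 2 rose with the lapatinib combination, with a median log2 FC of -0.83. The kinase AURKB (-2.17) and the kinesin KIF2C (-1.87) had the largest falls, and UBE2C (0.91) and CKS1B (0.70) rose. Of 19 FOXO targets, 6 fell and 11 rose, with a median of 0.71, against 6 and 7 with THZ531 1 µM and a median of 0.12. BBC3 (1.98), which promotes apoptosis, and GADD45A (1.89), a stress gene, led the rises, and INSR (-1.47) and SESN3 (-1.41) the falls. THZ531 0.1 µM alone raised the FOXO targets CDKN1A (0.59), BCL2L11 (0.49) and TRIB1 (0.39) and lowered FBXO32 (-0.31). It raised 1.78% and lowered 4.31% of all tested genes. Under mitochondrial scaling 1 FOXO target was higher and 0 were lower with that dose. Nilotinib alone raised GADD45A (0.66) and TRIB1 (0.50), against 0.243% of all tested genes, and under mitochondrial scaling it raised 0. Of 15 genes of the kinase pathway above FOXO, 8 fell and 5 rose with the lapatinib combination, with PIK3R1 (-2.25) and PDPK1 (-1.66) lowest and SGK1 (2.5) and SGK3 (1.71) highest. Of 15 tested SOX and WNT partners, 9 fell and 3 rose with the lapatinib combination. POU3F2 (-1.63) and APC (-1.47) were lowest and AXIN2 (1.09) and POU2F1 (0.91) highest. With the nilotinib combination 5 fell and 4 rose, and POU3F2 was not called (-0.47, adjusted p = 0.49, edgeR). Of 10 listed targets of SOX9 only 5 were tested. Of these none fell and 2 rose with the lapatinib combination, MATN3 (0.99) and SNAI2 (0.52). With THZ531 1 µM MATN3 rose (0.96), while SNAI2, also a mesenchymal marker above, fell (-0.48, adjusted p = 2.82e-04, edgeR). Under mitochondrial scaling 58.4% of all tested genes fell and 5.30% rose with the lapatinib combination. The falls and rises were then 16 and 0 of the cofactors, 5 and 2 of the HOX cluster noncoding RNAs, and 18 and 0 of the FOXM1 targets. They were 8 and 5 of the FOXO targets (median 0.03), 9 and 2 of the genes above FOXO, 12 and 1 of the SOX and WNT partners, and 0 and 0 of the SOX9 targets. Many of these genes belong to other pathways as well, and activity of the factors was not measured.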

How the data were processed

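RNA of 21 Hs578T samples treated for 8 h was sequenced by the authors as unstranded polyA libraries on a DNBSEQ-G400 with 100-bp paired ends, to a stated depth of 50 M reads. The deposited counts are whole-number counts per gene, which the authors made with HISAT2 2.1.0 on GRCh38 and featureCounts (its version, its annotation and whether it counted pairs or ends are not given in the sources used here). They were used as deposited. Gene symbols and positions came from RefSeq tables of GRCh38.p14, and exon lengths and exon numbers from the GENCODE annotation. No column of per-sample values was left unused.

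Here genes passing filterByExpr were fitted over all 21 libraries with 7 group means by the edgeR 4.0.16 quasi-likelihood test (R 4.3.3) after TMM scaling, with Benjamini-Hochberg adjustment over 16036 genes. Adjusted p under 0.05 was called. CPM (count per total count, times 1e6) uses TMM library sizes, and CPM per kb divides by merged exon length. Depth of 97612207 to 112229052 counts per library bounds the precision of genes with few counts. Alternatives were DESeq2 1.42.0, RLE, upper-quartile and mitochondrial mRNA scaling, other filters, counts divided by 2, a replicate block, and leaving out each library. On counts simulated for the lapatinib combination against DMSO over 15678 genes, 195 genes were changed, up or down. Of these, 79 of 97 genes with a 2-fold change were found, with 6 false calls. In the real comparison 37.8% of genes were called lower and 34.3% higher. The simulation therefore does not measure errors where so many genes change or where all mRNA shifts.

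Library values were given by rule for the 4 members of each family with the highest level per length, the 3 largest falls and rises per family among those called in both combinations and THZ531 1 µM, members called with a single low-dose agent, and members called between the combinations. The rule also covered members called in an interaction, but these exceed 40, so most are given as counts. Of the other lists, the 2 largest falls and 2 largest rises with the lapatinib combination were named. Members, lists and tests were chosen with earlier results of these data known.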

Additional observations from a re-analysis of the deposited data

Results flagged for a closer look

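For 16 members named by rule, the effect of THZ531 0.1 µM differed with and without a kinase inhibitor, by the edgeR interaction test across all genes (adjusted p from 5.39e-10 to 0.0275). The values are log2 interaction terms, lapatinib first and nilotinib second. Among HOX genes they were -2.43 and -2.04 for HOXB8, -2.89 and -2.77 for HOXB7, and -2.16 and -2.13 for HOXC6. Those above 0 were 1.93 and 1.62 for HOXA9, 1.82 and 1.2 for HOXC5, 0.91 and 0.84 for HOXA10, and 0.88 and 0.61 for HOXB2. These genes were chosen for their change in the combinations and few moved with a single agent, so the sign of the terms follows from the choice.

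Among FOX genes the terms were -1.96 and -1.86 for FOXJ2, -1.59 and -1.69 for FOXP2, and -1.32 and -1.17 for FOXK1. They were 2.06 and 1.78 for FOXC1, and 5.83 and 3.42 for FOXH1, which had few reads. Among SOX genes they were -1.12 and -1.39 for SOX12, and -3.52 and -3.68 for SOX7. SOX6, again with few reads, had 4.44 and 5.81. SOX30 passed with nilotinib alone, at -1.08. Both interactions use the same DMSO and THZ531 0.1 µM libraries, and 32.0% and 28.2% of all tested genes passed below and above 0 with lapatinib.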

How the results depend on the processing

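Counts below are of members. Scaling to mitochondrial mRNAs changed the lapatinib combination against DMSO from 24 lower and 25 higher to 37 and 11, the nilotinib combination from 26 and 22 to 41 and 7, and the number higher from 11 to 2 with THZ531 1 µM, from 11 to 3 between THZ531 doses, from 23 to 9 in the lapatinib interaction, from 18 to 7 in the nilotinib interaction, and from 1 to 0 with THZ531 0.1 µM and between the combinations. It also turned the log2 FC of HOXC10 (0.20 to -0.34), HOXC8 (0.48 to -0.0676), HOXA10 (0.39 to -0.16), FOXM1 (0.33 to -0.21), FOXF2 (0.07 to -0.47), SOX4 (0.00 to -0.56) and HOXB2 (0.24 to -0.31) with THZ531 1 µM. With the lapatinib combination it turned HOXC4 (0.64 to -0.0439), HOXA4 (0.28 to -0.40), FOXM1 (0.18 to -0.50), FOXJ3 (0.28 to -0.40), SOX9 (0.68 to -0.0090) and SOX13 (0.00 to -0.68). With the nilotinib combination it turned HOXC4 (0.15 to -0.47), FOXM1 (0.15 to -0.47), SOX13 (0.07 to -0.56) and HOXB2 (0.28 to -0.35). That scaling assumes these mRNAs are constant, which was not tested.

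Upper-quartile scaling moved the median of all genes to 0.15, 0.13 and 0.19 in the combinations and THZ531 1 µM. It gave 17 higher with THZ531 1 µM and 5 lower between the nilotinib combination and THZ531 1 µM (2 in the main fit). It also gave 3 higher between the combinations (1 in the main fit) and 1 higher with nilotinib (0 in the main fit). The 1 member higher with nilotinib also appeared with RLE scaling, no filter, halved counts and DESeq2, and DESeq2 gave 1 with lapatinib. Without the filter the 1 member higher with THZ531 0.1 µM became 0, and with at least 10 counts in every library the 1 lower became 0, since SOX30 was no longer tested. Between the combinations, 2 members were higher without the filter, with at least 10 counts and with halved counts, and 5 with DESeq2. The cause of these changes was not tested.

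Leaving out 1 library at a time gave 21 to 26 lower and 23 to 31 higher with the lapatinib combination, 23 to 27 and 17 to 24 with the nilotinib combination, and 30 to 34 and 8 to 14 with THZ531 1 µM. It gave 0 to 2 higher with THZ531 0.1 µM, 0 to 1 with lapatinib and 0 to 1 with nilotinib. Against THZ531 1 µM it gave 2 to 3 lower and 33 to 42 higher for the lapatinib combination, and 2 to 3 lower and 15 to 28 higher for the nilotinib combination. Between the combinations 1 to 5 were higher. Between THZ531 doses 31 to 38 were lower and 8 to 13 higher.

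Same-numbered libraries did not deviate together throughout (correlation above 0.1 in 36 of 63 pairs, range -0.83 to 0.892), so the numbers were not taken as pairing. With a replicate block, 4 members were lower in the nilotinib combination than with THZ531 1 µM (2 without), 2 were higher between the combinations (1 without), and the lapatinib combination gave 23 lower and 27 higher. Depth limits FOXH1, SOX6, SOX7, HOXB7 and HOXD1, whose fitted folds rest on few counts and are not bounds.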

Other observations

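Members were also grouped by gene structure. Of the 12 tested FOX and SOX genes with 1 exon, 3 fell and 3 rose with the lapatinib combination, and of the 29 with more exons 12 fell and 9 rose. FOXC1 (rise) and SOX12 (fall) are examples of 1-exon genes. Of the 41 tested members that overlap another annotated gene 15 fell and 16 rose, and of the 29 that do not 9 fell and 9 rose, against 37.8% and 34.3% of all tested genes.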
